A study of Mus musculus with 24 samples.

Results

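The MEF2C peaks of control cells at day 1 of induction were set against the peaks of the linker histone H1.0 in the same cell line before induction. The members were chosen by their labels: both MEF2C lists of siControl cells at day 1 and both H1.0 lists of the ground state, 4 of the 24 samples of the series and 4 of the 16 used through a peak list. On chromosomes 1 to 19 and X the MEF2C lists held 14912 peaks in replicate 1 and 27786 in replicate 2, together 42698 of the 1662467 peaks of all 16 lists. Every MEF2C peak of both lists entered the counts, with no filter on height or width.

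The cells were iMGT-Myh6-eGFP-MEF, a line of mouse embryonic fibroblasts that carries Mef2c, Gata4 and Tbx5 under doxycycline control and an eGFP reporter of the cardiac myosin gene Myh6. For the MEF2C samples, wells of 300000 cells received siControl, a control small interfering RNA. Doxycycline at 1 µg/mL was added on the following day and the cells were frozen at day 1 of induction. The H1.0 samples came from the ground state, whose treatment fields read not applicable, although their library names carry the word siControl. About 250000 cells per condition and 30 M reads per sample are given in the labels for both groups. All groups carried the transgenes and the reporter, and the sources used here do not say whether the line is 1 clone. Neither RNA nor protein was analysed here, so the fibroblast identity of the cells was not checked against markers. MEF2C of the transgene and native MEF2C cannot be told apart.

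MEF2C is a MADS-box transcription factor that binds an A/T-rich site and switches on muscle genes together with partners such as GATA4 and TBX5. The class IIa histone deacetylases bind MEF2 proteins and hold their targets back. H1.0, encoded by H1f0, is the replication-independent linker histone that accumulates in resting and differentiated cells; linker histones sit where DNA enters and leaves the nucleosome and favour compact chromatin.

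In CUT&RUN, a nuclease guided by an antibody cuts out the DNA around the bound protein. The authors' SEACR peak lists give each peak a total signal and a maximum signal, in units of fragment coverage, together with the interval in which the maximum is reached. A MEF2C peak is called on H1.0 below when the centre of that interval, 1 point per peak, lay inside an H1.0 peak. Rank means the order of the maximum signal within 1 list, and these scores are the authors'. Coordinates are 1-based on mm10.

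The 4 lists differed in extent, and the H1.0 lists most of all. H1.0 replicate 1 held 85700 peaks over 92.9 Mb, or 3.61% of the 2571 Mb between the outermost peaks of the 16 lists on these chromosomes. H1.0 replicate 2 held 412687 peaks over 1109 Mb, or 43.1%. Every base of this span counted as sequence, with no removal of assembly gaps or of repeats where reads cannot be placed. Of the sequence under replicate 1, 57.7% also lay under replicate 2. The MEF2C lists covered 15.5 and 63.2 Mb, with median widths of 943 and 1981 bp and median maximum signals of 9 and 20. Because of these differences each result is given for each of the 4 pairs of lists, and a share on H1.0 is set beside the share of sequence that the same H1.0 list covered. The labels number biological replicates but do not state what was repeated, so errors and p-values below cover the spread among the samples at hand, part of which could be technical.

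The upstream sequences of 4 genes show some of the kinds of site that the data separated. Each gene had a MEF2C maximum of both lists near its start and a MEF2 motif, and H1.0 lay over at least 150 of the 300 bases around the start in replicate 2 only (Hdac9, Hdac5), in replicate 1 only (Atf3) or in neither (Jun). No start under both H1.0 lists is shown. The motif makes these 4 unusual: it stood in 5.13% of the start windows with a peak of both MEF2C lists. The 250 bases before each start are printed 5′ to 3′ on the strand of the gene, which is the minus strand in each case, from RefSeq on GRCm38.p6, the assembly of mm10. Capitals mark matches to the MEF2 motif, CTA and TAG with any 4 bases between them, and to the AP-1 motif TGANTCA. This MEF2 pattern is loose: the 4 bases need not be A or T, and in the Hdac9 match they include G and C.
Hdac9, chr12:34528890-34529139: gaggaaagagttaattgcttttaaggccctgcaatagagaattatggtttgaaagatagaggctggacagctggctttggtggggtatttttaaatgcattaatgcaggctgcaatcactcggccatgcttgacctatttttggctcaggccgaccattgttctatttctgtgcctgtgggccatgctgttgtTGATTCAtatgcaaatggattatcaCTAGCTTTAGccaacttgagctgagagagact
Hdac5, chr11:102230173-102230422: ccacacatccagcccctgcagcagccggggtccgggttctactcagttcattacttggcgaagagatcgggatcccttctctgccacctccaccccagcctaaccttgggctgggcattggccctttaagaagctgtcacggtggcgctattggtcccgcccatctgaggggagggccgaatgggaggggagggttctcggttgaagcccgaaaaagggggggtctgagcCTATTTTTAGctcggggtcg
Atf3, chr1:191183334-191183583: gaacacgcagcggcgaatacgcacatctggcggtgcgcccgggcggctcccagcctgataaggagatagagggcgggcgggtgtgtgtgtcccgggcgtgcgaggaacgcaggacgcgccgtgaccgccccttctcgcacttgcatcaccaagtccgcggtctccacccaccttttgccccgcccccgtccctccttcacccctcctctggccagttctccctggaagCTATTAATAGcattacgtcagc
Jun, chr4:95052223-95052472: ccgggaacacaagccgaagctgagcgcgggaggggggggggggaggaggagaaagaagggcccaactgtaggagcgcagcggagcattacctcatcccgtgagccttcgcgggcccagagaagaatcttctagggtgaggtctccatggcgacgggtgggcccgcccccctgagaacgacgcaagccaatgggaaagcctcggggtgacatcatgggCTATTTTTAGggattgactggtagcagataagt

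Hdac9 and Hdac5 encode class IIa histone deacetylases. The Hdac9 start shown, at 34528889, is an alternative start inside the annotated gene, which runs from 34047580 to 34917095. The MEF2C maximum lay 270 and 316 bp from this Hdac9 start in replicates 1 and 2, outside the printed bases. The maximum signals were 90 and 297, and the H1.0 peak of replicate 2 there reached 19. At Hdac5 the MEF2C maxima lay 9 and 111 bp from the start with signals of 15 and 57, and H1.0 replicate 2 reached 8. Atf3, a stress-response member of the AP-1 family, had MEF2C signals of 23 and 62 at 94 and 130 bp from its start, and H1.0 replicate 1 reached 8; a replicate 2 peak of 9 touched fewer than 150 of the bases. Jun, a core AP-1 subunit, had MEF2C signals of 25 and 87 at 4 and 80 bp, with no H1.0 peak of either replicate at the start. The same 10 letters, CTATTTTTAG, stood upstream of Hdac5, whose window lay mostly under H1.0 replicate 2, and upstream of Jun, whose window met no H1.0 peak.

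Most control MEF2C peaks lay on sequence that the longer H1.0 list already marked before induction, and few on sequence that the shorter list marked. On H1.0 replicate 2 lay 10996 peaks of MEF2C replicate 1 (73.7%, 95% exact Clopper-Pearson interval 73.0 to 74.4%) and 20483 peaks of MEF2C replicate 2 (73.7%, 73.2 to 74.2%). On H1.0 replicate 1 lay 1353 peaks (9.07%, 8.62 to 9.55%) and 2407 peaks (8.66%, 8.33 to 9.0%). The intervals cover the count of peaks only. Both MEF2C lists gave nearly the same share on each H1.0 list, with means of 73.7% ± 0.0158 and 8.87% ± 0.290 (SD, n = 2 MEF2C lists). Against the covered sequence the shares were 1.71-fold and 1.71-fold higher for H1.0 replicate 2, and 2.51-fold and 2.40-fold higher for H1.0 replicate 1. At equal covered length, with H1.0 replicate 2 cut to its tallest peaks, its share was 20.1 and 18.5%, or 5.57-fold and 5.11-fold, which turned the order of the H1.0 lists by fold. With 2 lists against 2, no exact permutation test can go below p = 0.33, so these shares are descriptions.

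The excess was local to the MEF2C maximum. In H1.0 replicate 2 the share fell from 73.7% at the maximum to 67.3 and 67.1% at a distance of 0.5 kb, 56.6 and 55.6% at 1 kb and 48.7 and 47.9% at 2.5 kb, for MEF2C replicates 1 and 2. At 10 kb it was 44.7 and 45.2%, close to the 43.1% of all sequence. In H1.0 replicate 1 it fell from 9.07 and 8.66% to 5.89 and 5.80% at 1 kb, and it stood at 5.59 and 5.54% at 10 kb. That remainder was above the 3.61% of all sequence, so the peaks also lay in wider neighbourhoods richer in H1.0 of replicate 1.

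**Figure D1:**
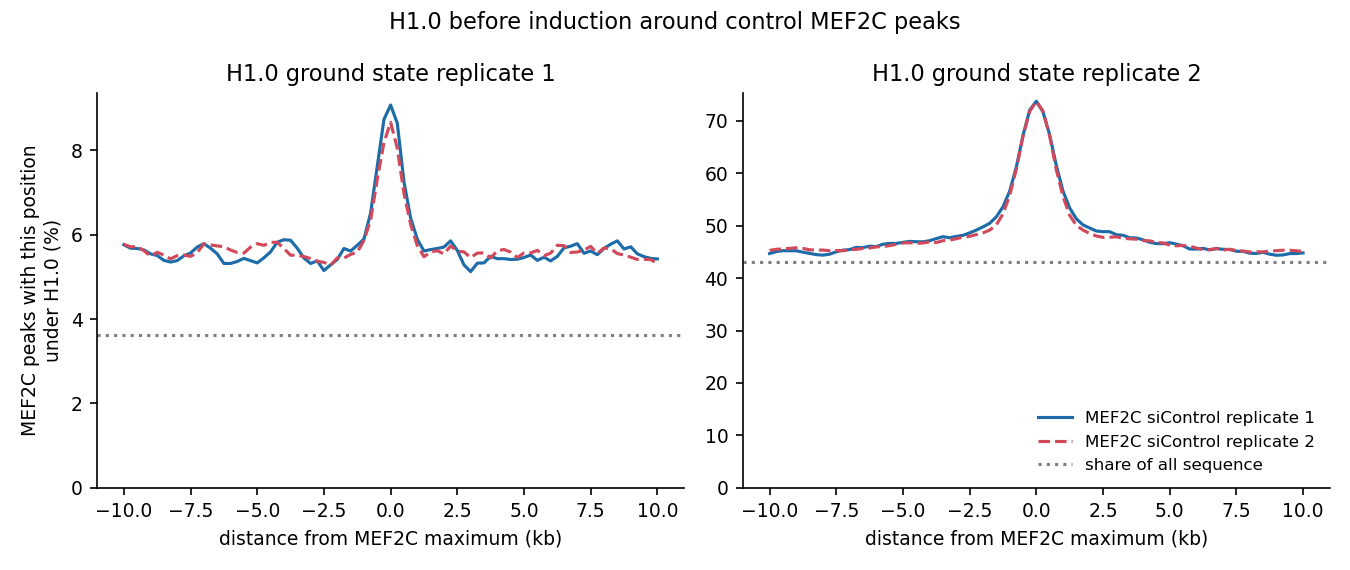
Share of positions under H1.0 (%, vertical axis) against distance from the MEF2C maximum (kb, horizontal axis) for each H1.0 list, with 1 line per MEF2C list and the share of all sequence dotted. In replicate 2 both lines peak at 73.7% and fall to 44.7 and 45.2% at 10 kb; in replicate 1 they peak at 9.07 and 8.66%.

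How much of a peak had to lie under H1.0 mattered for the shorter list. At least 1 bp of the peak lay under H1.0 replicate 1 for 14.1 and 18.7% of peaks, and the whole peak for 2.38 and 0.345%. Under H1.0 replicate 2 the whole peak lay in 53.9% of the narrow peaks of MEF2C replicate 1 and 29.9% of the wide peaks of MEF2C replicate 2.

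In H1.0 replicate 2, MEF2C maxima were densest in the tall H1.0 peaks. Per Mb of sequence outside H1.0 replicate 2 there were 2.68 and 5.00 MEF2C maxima in replicates 1 and 2. In its lowest peaks, with maximum signals of 3 to 6, there were 3.30 and 6.79 per Mb, and in its tallest class, 92338 peaks with signals of 11 to 415, there were 17.0 and 30.9 per Mb. The density rose at each of the 5 height classes of H1.0 in both MEF2C lists. The tallest class made up 37.5% of the H1.0 sequence and held 64.5 and 62.8% of the MEF2C maxima that lay on this list. Counted once per MEF2C maximum, the H1.0 replicate 2 peak around it had a median maximum signal of 12. Counted once per H1.0 peak, the median over the whole list was 8. The tall peaks were also wider, with median widths of 3418 bp in the tallest class and 1545 bp in the lowest, so these 2 medians are not on the same footing.

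H1.0 replicate 1 showed the same order over a smaller range. Outside it lay 5.47 and 10.2 MEF2C maxima per Mb, in its lowest class (signals of 2 to 5) 12.1 and 22.1, and in its tallest (8 to 205) 19.2 and 33.6. Its lowest class still held 26.9 and 27.5% of the MEF2C maxima that lay on it. Counted once per MEF2C maximum, its peaks had a median maximum signal of 6, the same as over all its peaks. In both lists most H1.0 peaks held no control MEF2C maximum. Even in the tallest class of replicate 2, 6.95 and 13.0% held one, and in the tallest class of replicate 1, 2.13 and 3.73%.

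**Figure D2:**
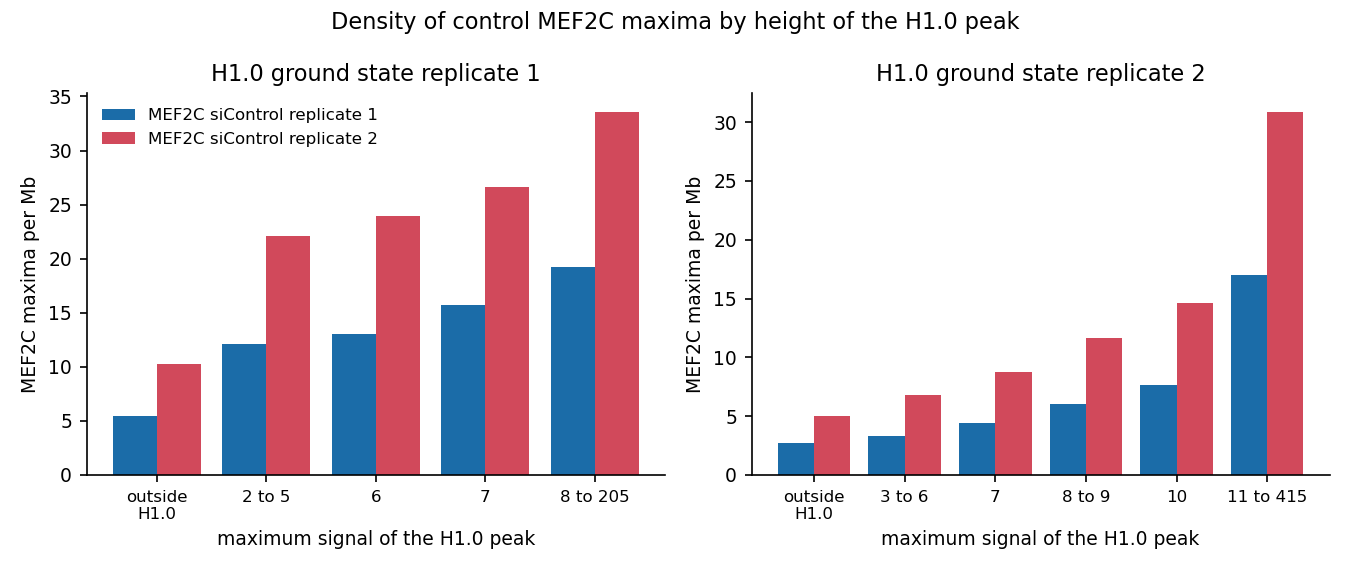
MEF2C maxima per Mb of sequence (vertical axis) outside H1.0 and in classes of H1.0 peaks by their maximum signal (horizontal axis), for each H1.0 list, with 1 bar per MEF2C list. For H1.0 replicate 2 the density runs from 2.68 and 5.00 outside to 17.0 and 30.9 in the tallest class.

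Within an H1.0 peak the MEF2C maximum lay near the H1.0 maximum. In H1.0 replicate 2, 38.6 and 41.3% of the maxima lay within 250 bp of the centre of the H1.0 maximum, where 18.4 and 19.1% would if placed evenly along the same peaks. In H1.0 replicate 1, with its narrower peaks, 51 and 51.4% did so, against 44.5 and 44.8%.

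By rank, the strongest MEF2C peaks lay on H1.0 replicate 2 most often. The peaks of each list were put into 10 classes by maximum signal, of which ties left 9 in replicate 1. From the lowest to the highest class the share went from 69.8 to 79.5% in MEF2C replicate 1 and from 71.1 to 79.1% in replicate 2, a difference of 8.86 ± 1.26 percentage points (SD, n = 2). Of the 100 highest peaks, 85 and 88 lay on H1.0 replicate 2, and of the 1000 highest 80.6 and 82.3%. The share at 10 kb ran the other way, from 48.3 and 54.4% around the lowest class to 45.4 and 45.1% around the highest. The highest class thus combined the highest share at the maximum with the lower share around it.

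On H1.0 replicate 1 the share had no such slope. It was 10.7 and 10.2% in the lowest class and 10.1 and 9.47% in the highest, a difference of -0.67 ± 0.129 percentage points, with lows of 7.23 and 6.74% between. The direction rested on settings: it was +1.45 when ranked by total signal, +1.56 when 1 bp of overlap counted and +1.09 without the peaks under ground-state H3K9me3, a mark of heterochromatin. Of the 100 highest MEF2C peaks, 9 and 6 lay on H1.0 replicate 1.

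Wide MEF2C peaks lay on H1.0 more often than narrow ones in all 4 pairs, although only the point of maximum signal was counted. On H1.0 replicate 2 the share was 69.9 and 69.1% in the narrowest of 5 width classes and 78.5 and 77.5% in the widest, a difference of 8.54 ± 0.161 percentage points. On H1.0 replicate 1 it was 8.02 and 7.80% against 10.0 and 9.50%, a difference of 1.84 ± 0.204. Median width fell and then rose over the rank classes: it went from 1001 and 2278 bp in the lowest through lows of 840 and 1692 bp to 1405 and 2701.5 bp in the highest. Each difference on H1.0 replicate 2 was smaller with the other held: 4.60 for rank within classes of width and 5.48 for width within classes of rank.

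**Figure D3:**
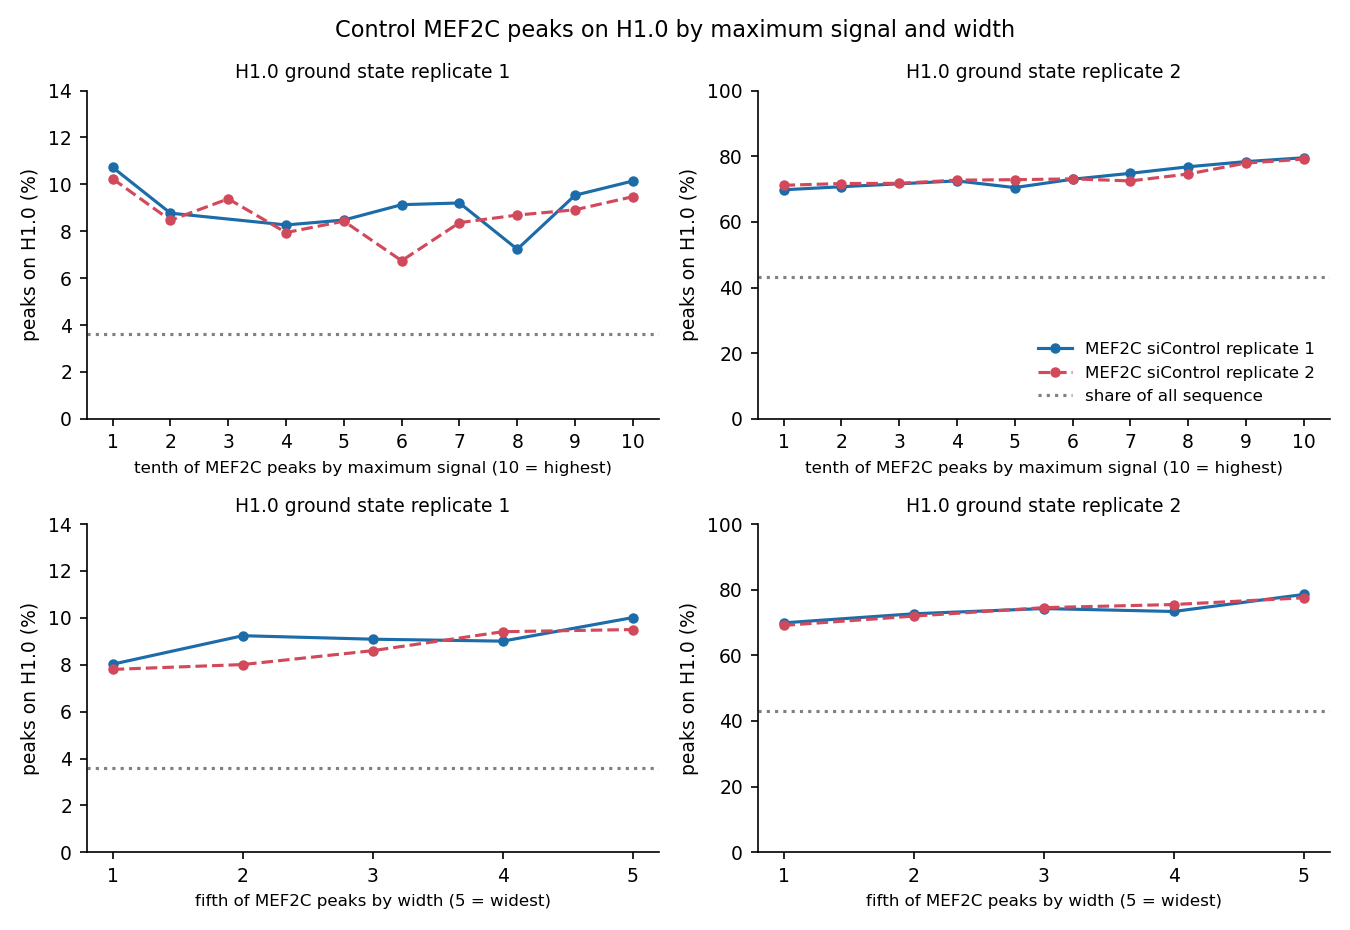
Share of MEF2C peaks on H1.0 (%, vertical axes) in 10 classes of maximum signal (upper panels) and 5 classes of width (lower panels), for each H1.0 list, with 1 line per MEF2C list and the share of all sequence dotted. On H1.0 replicate 2 both lines rise with rank, to 79.5 and 79.1%, while on replicate 1 they are lowest between the ends.

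Control MEF2C peaks gathered at gene starts, and H1.0 of both replicates lay under them there and far from genes alike. Within 1 kb of the start of a protein-coding gene lay 15.8 and 17.7% of the MEF2C peaks on 2.05% of the sequence. Of these, 77.7 and 75.4% lay on H1.0 replicate 2, which covered 47.0% of all start sequence, and 11.2 and 9.67% on H1.0 replicate 1, which covered 6.69%. Over 50 kb from any gene lay 13.7 and 12.6% of the peaks on 35.6% of the sequence. Of those, 76.6 and 81.8% lay on H1.0 replicate 2 (41.3% of that sequence) and 8.83 and 7.82% on replicate 1 (2.06%).

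The excess over the covered sequence was therefore greatest far from genes. For H1.0 replicate 1 it was 4.28-fold and 3.79-fold there, against 1.67-fold and 1.44-fold within 1 kb of a start. For H1.0 replicate 2 it was 1.86-fold and 1.98-fold, against 1.65-fold and 1.60-fold. Assembly gaps and repeats where no peak can be called were not taken out of the sequence, and their part in these fold values was not tested. Peaks inside genes over 5 kb from a start, the most numerous class with 5807 and 10819 peaks, lay on H1.0 replicate 2 in 72.0 and 71.8% and on replicate 1 in 8.18 and 8.07%. Around the starts the sequence 10 kb from the maximum was the poorest in H1.0 replicate 2, with 36.6 and 35.7%, so that the step from flank to maximum was 2.12-fold and 2.11-fold. Over 50 kb from any gene that step was 1.56-fold and 1.61-fold, so against the flank the order turned for replicate 2. For H1.0 replicate 1 the step stayed larger far from genes, at 2.28-fold and 2.02-fold against 1.89-fold and 1.62-fold at starts.

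Between peaks within 5 kb of a start and those over 50 kb from any gene, the share differed by 1.24 ± 0.0958 percentage points on H1.0 replicate 1, higher near starts. On H1.0 replicate 2 it differed by -4.49 ± 5.37, with -0.70 for MEF2C replicate 1 and -8.29 for MEF2C replicate 2, which is within the spread between the lists. Starts were known for 17274 of 21631 protein-coding genes (79.9%), and both gene ends stood in for the others. The annotation used gives no exons, so exons, introns and UTRs were not told apart.

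**Figure D4:**
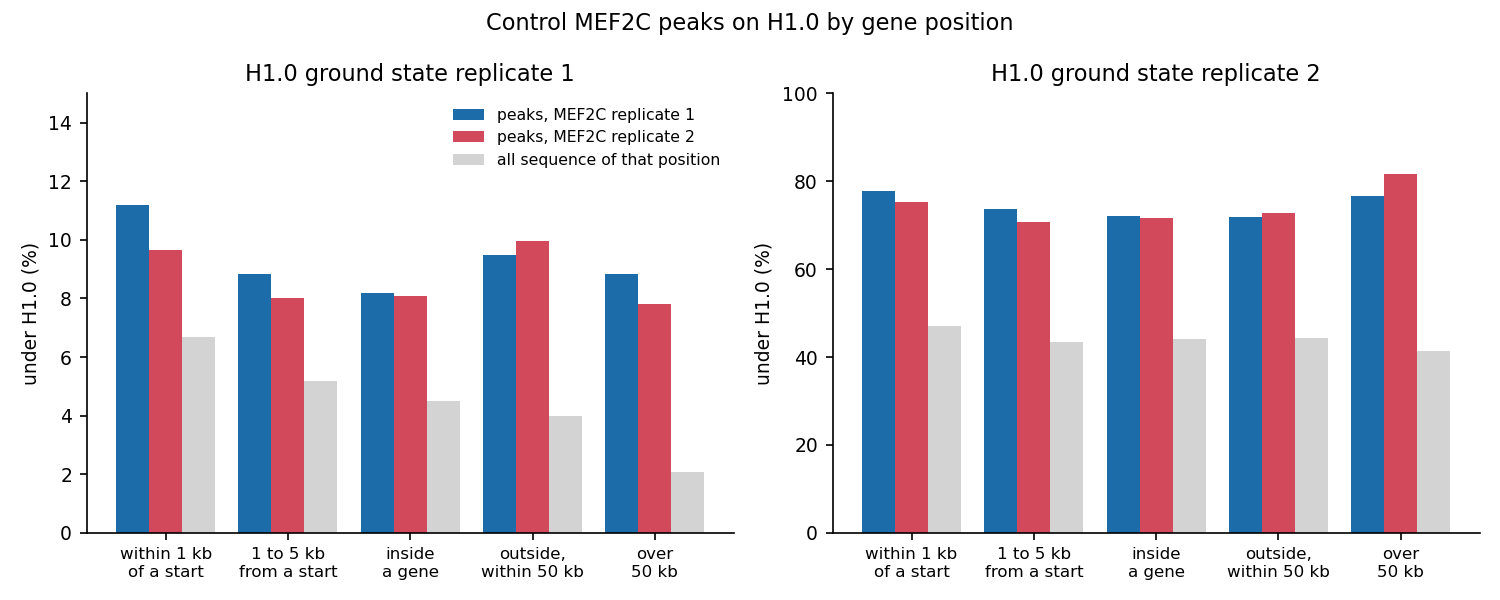
Share under H1.0 (%, vertical axes) of MEF2C peaks in 5 classes of position to protein-coding genes, for each H1.0 list, with 1 bar per MEF2C list and a grey bar for all sequence of that class. Over 50 kb from any gene the peak bars stand at 8.83 and 7.82% against 2.06% of sequence in replicate 1, and at 76.6 and 81.8% against 41.3% in replicate 2.

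The excess was present on each chromosome. On all 20 chromosomes and in all 4 pairs the share of peaks on H1.0 was above the share of sequence. For H1.0 replicate 2 the ratio ran from 1.28-fold and 1.27-fold on chromosome 10, where the list covered 63.2%, to 2.49-fold and 2.45-fold on chromosome 14, where it covered 25.5%. For H1.0 replicate 1 it ran from 1.37-fold and 1.38-fold on chromosome 11 to 6.99-fold and 5.15-fold on chromosome X. Chromosome X had the lowest share on H1.0 replicate 2, 53.1 and 60.9%, and chromosome 2 the highest, 82.0 and 82.1%.

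Both H1.0 lists together split the control peaks into 4 kinds. On both lists lay 7.62 and 7.5% of the peaks, on replicate 2 alone 66.1 and 66.2%, on replicate 1 alone 1.45 and 1.16%, and on neither 24.8 and 25.1% (3700 and 6980 peaks). The sequence that both H1.0 lists covered came to 53.6 Mb, or 2.08%, so the peaks on both were 3.66-fold and 3.60-fold above it. Of the peaks on H1.0 replicate 1, 84.0 and 86.6% also lay on replicate 2, against 72.7 and 72.5% of the rest.

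The 4 kinds differed in other readouts of the same points. In the siControl cells at day 1, H1.0 replicate 1 of that day covered 35.4% of the sequence and lay over 70.3 and 71.1% of all control MEF2C peaks. By kind it lay over 90.9 and 88.4% of the peaks on both ground-state lists, 76.9 and 77.4% of those on replicate 2 alone, 62.0 and 62.8% of those on replicate 1 alone, and 46.9 and 49.5% of those on neither. The shorter day 1 list, replicate 2, covered 1.11% of the sequence and lay over 5.67 and 4.87% of all peaks. By kind, in the same order, it lay over 15.8 and 14.6%, 5.14 and 4.85%, 16.2 and 12.1%, and 3.35 and 1.68%. Sequence under H1.0 before induction was thus more often listed under H1.0 at day 1, at points where MEF2C was also listed.

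H3K9me3 was scarce at control MEF2C peaks. Ground-state H3K9me3 lay over 1.57 and 1.81% of the peaks in its replicate 1, which covered 2.55% of the sequence, and over 4.45 and 4.88% in its replicate 2, which covered 12.2%. At 10 kb from the maximum it stood at 2.14 and 2.22% in replicate 1 and at 6.30 and 6.55% in replicate 2. Much of the shortfall in replicate 2 thus lay in the wider neighbourhood. Peaks on both H1.0 lists had more of it than peaks on H1.0 replicate 2 alone: 7.56 and 8.97% against 3.43 and 3.90% in H3K9me3 replicate 2. Peaks on H1.0 replicate 1 alone had the most, 9.72 and 11.1%.

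Merged, the MEF2C lists gave 30272 regions, of which both held 11286 (37.3%). Their H1.0 state was mostly the same from whichever list the maximum was taken. On H1.0 in all 4 pairs lay 786 regions (6.96%), on replicate 2 alone 7424 (65.8%), on replicate 1 alone 103 (0.913%), and in none of the pairs 2270 (20.1%). In 703 (6.23%) the 2 maxima differed in state. Regions on H1.0 in all pairs had a median width of 2311 bp and 21.9% of them lay within 1 kb of a start; those in none had 2072 bp and 15.2%. Peaks of regions held by both MEF2C lists lay on H1.0 replicate 2 in 76.5 and 76.8%, against 59.8 and 71.6% of peaks in 1 MEF2C list alone, which ranked lower. On H1.0 replicate 1 the shares were 9.05 and 9.18% against 9.19 and 8.31%, with no common direction.

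The 10 highest ranked of the regions on H1.0 in all 4 pairs lay mostly away from gene starts. The first, chr10:116259888-116262653 inside Ptprr, a receptor tyrosine phosphatase gene, had MEF2C maximum signals of 118 and 604 over H1.0 peaks of 7 and 30 in replicates 1 and 2. The second, chr10:5287537-5290217 inside Syne1, which encodes a nuclear envelope protein that links to the cytoskeleton, had 80 and 220 over H1.0 of 7 and 13. The fifth, chr9:43944513-43947415, lay 98.1 kb from the nearest gene, Thy1, a fibroblast surface marker, with MEF2C signals of 52 and 325 over H1.0 of 6 and 28. The seventh, chr1:64117129-64122934 at the start of the zinc finger gene Klf7, had 60 and 219 over H1.0 of 6 and 28. The rest lay nearest to Gask1b, Rbm47, Irs2, Rasgef1b, Magi2 and Chit1, with MEF2C signals of 48 to 72 in replicate 1 and 186 to 408 in replicate 2. All 10 were held by all 3 siJunb and all 3 siH1f0 lists. Over all 11286 regions of both MEF2C lists, single lists held 52.1 to 77.2% under siJunb and 72.6 to 97.2% under siH1f0.

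The 10 highest ranked regions on H1.0 in none of the pairs were as tall. The first, chr13:3895970-3898097 in Net1 had MEF2C signals of 127 and 332. The third, chr4:150797997-150801082, lay 54.2 kb from Errfi1, which encodes a feedback inhibitor of EGF receptor signalling, with 79 and 374. The fourth, chr19:57136249-57138563 in Ablim1, an actin-binding LIM protein gene, had 70 and 475. The sixth, chr19:4991355-4994451, lay in Npas4, an activity-induced transcription factor gene, with 81 and 298. Regions within 1 kb of a start were among the others, at Rpl41, a ribosomal protein gene, Chchd1, a mitochondrial ribosomal protein gene, and Tcf3, which encodes an E protein. The start window of Chchd1 itself lay under H1.0 replicate 2, with the MEF2C maximum outside it. Pick1, Hspa4 and Atg7 completed the set, and all 10 were again held by all 6 knockdown lists. Both sets of 10 were picked by rank, so these counts do not set regions on and off H1.0 apart.

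Over genes, a region of both MEF2C lists lay within 5 kb of 5952 of 21631 protein-coding genes (27.5%). Such a region can lie nearer to another gene than to the one it is counted for. The highest ranked region of the gene lay on H1.0 replicate 2 in both pairs for 4283 of them (72.0%), on replicate 1 in both pairs for 513 (8.62%) and on H1.0 in none of the pairs for 1353 (22.7%). The lists below are read against these shares, with no test, since they were chosen with earlier results known.

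Among sarcomere and cardiac stress genes, 15 of 33 had a region, 13 of the 15 on H1.0 replicate 2 and 4 also on replicate 1. Those 4 were Ankrd1, a stretch-induced ankyrin repeat protein of muscle, Cryab, a small heat shock protein, Myom2, a protein of the sarcomeric M-band, and Myl7, the atrial myosin light chain. At Ankrd1 the MEF2C signals were 27 and 129 over H1.0 of 6 and 13, and at Myl7 they were 16 and 31 over H1.0 of 7 and 11. Actc1, cardiac actin, had MEF2C signals of 14 and 44 over an H1.0 replicate 2 peak of 24. Ttn, titin, had 10 and 42 over one of 10, and Myom1 had 44 and 198 over one of 9. The regions counted for Myom1 and Synpo2l, both among the 13, had Myl12a and Sec24c as their nearest genes. Tpm1, tropomyosin, had the highest region of the list, 44 and 236, and Csrp3, a muscle LIM protein gene, had 11 and 54; neither of these regions lay on H1.0 in any pair. Tpm1 as a whole was not free of H1.0: 4 of its 5 peaks of MEF2C replicate 1 and 1 of its 2 peaks of MEF2C replicate 2 lay on H1.0 replicate 2, which covered 77.4% of the gene, and a start window of Tpm1 lay under both H1.0 lists. Tnnt2, cardiac troponin T, had no region of both lists, but 1 peak of MEF2C replicate 2, with a signal of 21 on both H1.0 lists. Myh6 had 3 peaks of MEF2C replicate 1 alone, none on H1.0 and the highest at 10; reads from the Myh6 reporter could not be told apart there. Nppa, the atrial natriuretic peptide gene, had no MEF2C peak, and Ryr2, the calcium release channel gene, had 1 in replicate 1 with a signal of 3, on H1.0 replicate 2.

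Cardiac transcription factors and partners of MEF2 had 11 of 24 genes with a region, 10 of the 11 on H1.0 replicate 2 and 1, Tbx3, also on replicate 1. The 4 class IIa histone deacetylase genes Hdac4, Hdac5, Hdac7 and Hdac9 were all among the 10. Hdac9 had 9 regions and the highest of the list. Srf, the serum response factor, had MEF2C signals of 10 and 62 over an H1.0 replicate 2 peak of 25, and Tbx3, a T-box repressor of the conduction system, had 33 and 72 over H1.0 of 8 and 17. Mef2a, the exception, had 13 and 31 with no H1.0. Mef2c itself had signals of 39 and 221 over an H1.0 replicate 2 peak of 14, where reads from the transgene cannot be told apart from native sequence. Gata4 and Tbx5, also carried as transgenes, had peaks of MEF2C replicate 2 alone, 1 and 2, with highest signals of 14 and 19.

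Calcium handling and ion channel genes had 7 of 16 with a region, 4 of the 7 on H1.0 replicate 2 in both pairs and none on replicate 1. Cacna1c, the pore subunit of the L-type calcium channel, had MEF2C signals of 23 and 73 over an H1.0 peak of 16, and Kcnj2, an inward rectifier channel, had 18 and 83 over one of 19. Jph2, which couples the plasma membrane to the sarcoplasmic reticulum, had 13 and 67 with no H1.0.

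Fibroblast and extracellular matrix genes had 17 of 30 with a region, 15 of the 17 on H1.0 replicate 2 and 4 also on replicate 1 (Ccn2, Fstl1, Ddr2 and Col5a2). The region counted for Ddr2 had Hsd17b7 as its nearest gene. Ccn1 and Ccn2 encode matricellular proteins induced by stretch and serum. Ccn1 had MEF2C signals of 51 and 247 over an H1.0 replicate 2 peak of 13, and Ccn2 had 28 and 119 over H1.0 of 12 and 31. The start window of Ccn1 itself lay under neither H1.0 list. Snai2, a mesenchymal repressor, had 20 and 91 over the tallest H1.0 replicate 2 peak of the list, 33. Thy1 and Pdgfrb, a receptor of platelet-derived growth factor, had their highest ranked regions near or inside the gene with no H1.0. The MEF2C signals there were 31 and 75 and 23 and 83. Thy1 was not free of H1.0 at its other peaks. The count of single peaks for the gene left out the MEF2C replicate 1 peak of 31. It held 1 other peak of MEF2C replicate 1, with a signal of 7, on H1.0 replicate 2. Of the 2 peaks of MEF2C replicate 2 in the count, 1 lay on H1.0 replicate 2. That H1.0 list covered no base of the gene. Vim and Pdgfra had regions on H1.0 replicate 2 in both pairs and on replicate 1 in 1 pair. Col1a1 and Postn had peaks of MEF2C replicate 2 alone, 2 on H1.0 replicate 2 for Col1a1 and 1 off H1.0 for Postn.

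The AP-1 family had 11 of 15 genes with a region, a share above that of the other lists except housekeeping genes, and 5 of the 11 on H1.0 replicate 2 in both pairs. Fosl2 (42 and 187 over an H1.0 replicate 2 peak of 14), Fos (32 and 113 over one of 11) and Bach2 (18 and 118 over one of 27) were among the 5. Jun, Junb, Fosb and Jdp2 lay on H1.0 in none of the pairs, with MEF2C signals of 25 and 87 at Jun and 16 and 96 at Junb. No base of the Junb gene and 7.37% of the Jun gene lay under H1.0 replicate 2, against 95% of the Fos gene. Atf3 was the 1 member on H1.0 replicate 1 in both pairs, and its region also met peaks of both ground-state H3K9me3 lists.

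Housekeeping genes had 13 of 17 with a region, and 5 of the 13 lay on H1.0 replicate 2 in both pairs while 6 lay on H1.0 in none. Ppia, a cyclophilin gene, had MEF2C signals of 27 and 136 and lay off H1.0. The region counted for Atp5b, a subunit gene of ATP synthase, had 26 and 174 over H1.0 of 7 and 19, with Baz2a as its nearest gene. Of the linker histone genes, 5 of 9 had a region (H1f1, H1f2, H1f3, H1f5 and H1f6), and all 5 lay on H1.0 replicate 2 and none on replicate 1. The regions counted for H1f1, H1f2, H1f5 and H1f6 had the core histone genes H3c1, H2bc3, H3c11 and H4c3 as their nearest genes. The start window of H1f2 itself was not under H1.0 replicate 2, while those of H1f1 and H1f5 were. H1f0 itself had 1 peak of MEF2C replicate 2, with a signal of 22, on H1.0 replicate 2, which covered the whole gene.

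The lists of other functions were smaller. Smooth muscle genes had 3 of 10 with a region (Vcl, Cald1 and Mylk), all 3 on H1.0 replicate 2. Cell cycle genes had 6 of 17, with 2 on H1.0 replicate 2 in both pairs (Trp53 and Pcna), Cdk1 and Mdm2 in no pair and Cdkn1a on replicate 1 alone. A start window of Trp53 with a peak of both MEF2C lists lay under neither H1.0 list. None of 24 regulators and markers of other lineages, such as Myod1 of skeletal muscle, Sox2 of neural and pluripotent cells and Hnf4a of liver, had a region of both lists.

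**Figure D5:**
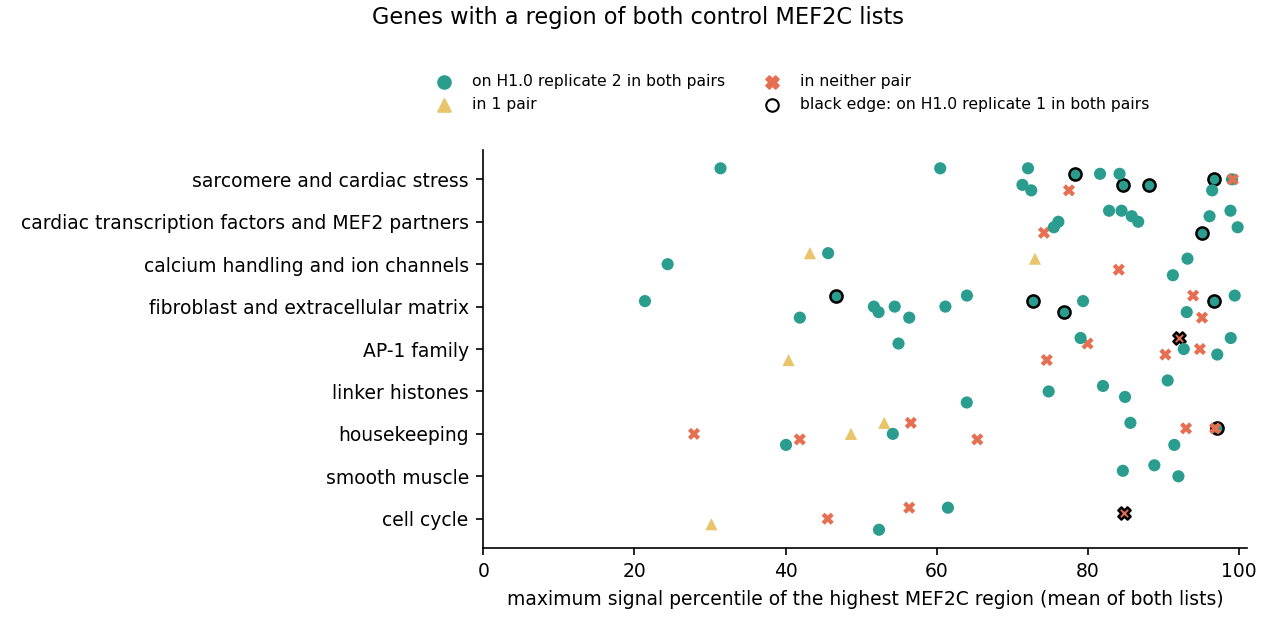
Highest ranked MEF2C region of each listed gene, placed by its maximum signal percentile (mean of both MEF2C lists, horizontal axis) in rows by gene list, with the symbol giving its state on H1.0 replicate 2 and a black edge marking H1.0 replicate 1 in both pairs. Sarcomere genes have 13 of 15 on replicate 2, AP-1 genes 5 of 11 and housekeeping genes 5 of 13.

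Promoters allowed the sequence under MEF2C and H1.0 to be read. Of 21020 RefSeq promoter windows of 300 bases, 50.7% had at least 150 bases under H1.0 replicate 2, and of the 2009 with a peak of both MEF2C lists 76.6% did. The 14780 windows with no MEF2C peak had 42.4%. On H1.0 replicate 1 lay 10.9% of the MEF2C windows against 7.62% of all.

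The MEF2 motif, as spelled out above and the same on both strands, stood in 3.51% of all windows and 5.13% of the MEF2C windows. Among the latter it stood in 69 of 1538 (4.49%) under H1.0 replicate 2 and in 34 of 471 (7.22%) outside it. For H1.0 replicate 1 the order was the opposite, with 6.85% under it and 4.92% outside. The AP-1 motif, TGANTCA on both strands, stood in 7.04% of all windows and in 5.46 and 4.67% of MEF2C windows under and outside H1.0 replicate 2. MEF2C windows were rich in G and C: the median G+C content was 60.3% under H1.0 replicate 2 and 62.3% outside it, against 56.7% over all windows. Windows under H1.0 replicate 2 with no MEF2C had 51% and a median of 5 CpG, against 21 CpG in MEF2C windows under H1.0. A match is a description of the letters, not evidence of a bound site.

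Whether MEF2C regions on prior H1.0 were listed again after a knockdown was read in 6 further MEF2C lists, from cells given siH1f0 or siJunb in place of siControl and otherwise induced in the same way. Neither knockdown was checked here. Of the 786 regions on H1.0 in all 4 pairs, siH1f0 replicates 1, 2 and 3 held 91.1, 96.6 and 76.6%, and siJunb replicates held 58.1, 79.1 and 71.1%. Of the 2270 regions on H1.0 in none, siH1f0 replicates held 88.7, 96.3 and 69.2% and siJunb replicates 49.5, 73.8 and 58.7%. All 6 lists therefore held regions on prior H1.0 at the higher share.

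The gap between the kinds was 2.37, 0.309 and 7.38 percentage points under siH1f0 (mean 3.35 ± 3.64, SD, n = 3) and 8.63, 5.30 and 12.4 under siJunb (8.78 ± 3.55, n = 3). The groups overlapped, since siH1f0 replicate 3 lay above siJunb replicate 2. The difference of -5.42 percentage points had p = 0.2 in a two-sided exact permutation test over the 3 and 3 lists, whose smallest possible p is 0.1. Within 5 classes of MEF2C rank the gaps were 2.64 ± 2.62 and 6.79 ± 3.33 (exact p = 0.2). The gaps were closer when only H1.0 replicate 2 split the regions, 8431 on it in both pairs and 2397 in neither. They were then 3.10 ± 1.19 and 4.83 ± 1.66, a difference of -1.74 percentage points (exact p = 0.2). When 1 bp of overlap counted, the gaps were 7.28, 2.83 and 13.2 under siH1f0 and 15.6, 14.5 and 20.6 under siJunb. The groups then did not overlap, and the difference was -9.14 (exact p = 0.1, the smallest possible). That rule also sorts by width: under it the share of peaks on H1.0 replicates 1 and 2 changed with width by 12.3 and 15.2 percentage points. With the point of maximum signal these changes were 1.84 and 8.54. The part of width in the gap was not tested. The lists differed in length, from 11717 to 48997 peaks under siJunb and from 17856 to 35598 under siH1f0. They also differed in the share of all regions of both MEF2C lists that they held. It was 90.9, 97.2 and 72.6% for siH1f0 replicates 1, 2 and 3 and 52.1, 77.2 and 63.7% for siJunb replicates. A list that holds nearly all regions has little room for a gap, and the smallest gap, 0.309, came with 97.2%. The part of list length and of this share in the gap was not tested.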

How the data were processed

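MEF2C at day 1 under siControl (n = 2) and H1.0 in the ground state (n = 2) were compared through 1 deposited peak list per sample, with day 1 H1.0, H3K9me3 (n = 2 per group) and MEF2C under siH1f0 and siJunb (n = 3 each) as further readouts. The authors used Bowtie2 and SEACR with mm10, per the submitters' processing notes; versions and filters are not given in the sources used here. The deposited values are signal, that is fragment coverage summed over a peak and its maximum, and no scaling to depth was stated. Depth beyond the 30 M reads of the labels is unknown, so precision was judged from the spread between lists. The 8 IgG samples were not analysed here; labels of both ground-state IgG samples name the list of H1.0 replicate 2 and 1 siControl IgG label names that of MEF2C replicate 2, with no role stated.

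Overlaps were computed with Python 3.11.15, numpy 2.4.6, pandas 2.3.3 and scipy 1.17.1 on chromosomes 1 to 19 and X, and the overlap code was tested on simulated intervals. Gene positions and promoters came from RefSeq on GRCm38.p6. The flank value is the mean of both points 10 kb from the maximum. Alternatives changed the overlap rule, H1.0 threshold and length, MEF2C threshold, ranking column, gene set and distance, and left out each list. The text names the 10 highest ranked regions on H1.0 in all pairs and in none, 2 to 4 genes per list by rank, and a fixed set of cardiac, AP-1, fibroblast and transgene genes; further genes were added after their values were seen. Members and lists were chosen with earlier results of these data known. Motif searches at the peaks needed a genome sequence, not used here, so promoter windows were searched.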

Additional observations from a re-analysis of the deposited data

How the results depend on the processing

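The mean change with rank on H1.0 replicate 1 turned in sign under 3 alternatives. The mean changes with rank on replicate 2 and with width and position on both kept theirs, although at 1 kb the change with position on replicate 2 was 1.11 for MEF2C replicate 1 and -6.41 for MEF2C replicate 2. Values are means over both MEF2C lists in percent or percentage points. With at least 1 bp under H1.0, the share on H1.0 replicates 1 and 2 was 16.4 and 82.8, the change with rank 1.56 (reversed from -0.67) and 5.26, and the change with width 12.3 and 15.2. With at least 50% of bases the shares were 7.11 and 73.5. With the upper 50% of H1.0 peaks by maximum signal they were 4.26 and 61.7, and with the upper 50% of MEF2C peaks 75.9 on replicate 2. With H1.0 replicate 2 cut to the length of replicate 1 (14190 peaks with maximum signals of at least 15), the share was 19.3 (5.57-fold and 5.11-fold over its sequence), the change with rank 7.07 and with width 8.06. Ranked by total signal, the change with rank was 1.45 (reversed) and 14.9. Within classes of width it was 4.60 on replicate 2, and within classes of rank the change with width was 5.48 there. The change with gene position on replicate 1 was 2.10 at 1 kb, 2.08 with all 49554 annotated genes and 1.45 within classes of rank. Alternatives added after seeing the data gave, without peaks under ground-state H3K9me3, shares of 8.48 and 74.2 and a change with rank on replicate 1 of 1.09 (reversed), and, with both gene ends for each gene, a change with position of 1.11. The cause of these shifts was not tested.

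Leaving out each MEF2C list gave 8.66 to 9.07 and 73.717 to 73.739 for the shares, -0.76 to -0.58 and 7.97 to 9.76 for rank, 1.70 to 1.99 and 8.42 to 8.65 for width, and 1.17 to 1.31 and -8.29 to -0.70 for position. The gap in retention ranged from -7.43 to -3.61 without each knockdown list and was -9.14 with 1 bp of overlap (exact p = 0.1, the smallest possible). Split by H1.0 replicate 2 alone, it was -1.74 (exact p = 0.2). With the replicate number as a block it was -5.42 (exact p = 0.25, the smallest possible); nothing in the labels says that a number pairs the samples. What set the length of the H1.0 lists was not tested, and a MEF2C peak off H1.0 replicate 1 is one where no H1.0 peak was called, not one without H1.0.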
